A study of Mus musculus with 48 samples.

Results

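A set of 35 genes of myelin and of mature oligodendrocytes was followed in the cerebral cortex of a Huntington disease mouse model, by taking the rows of the counts table that carry their symbols. They are 35 of the 48795 genes of the table, each matched 1 row, and all 35 passed the filter on low counts that left 19547 genes tested. The study crossed mice heterozygous for Q140, a CAG-expanded allele knocked into Htt, with mice heterozygous or homozygous for a mutation of Msh3, a mismatch repair gene. RNA was sequenced in 48 libraries of cerebral cortex on the C57BL/6 background at 12 months of age. Of the 6 genotypes, 3 lack Q140 (wild type, Msh3+/- and Msh3-/-) and 3 carry it (Q140, Q140 with Msh3+/- and Q140 with Msh3-/-). Each has 8 libraries, from 4 females and 4 males. The extraction protocol in the labels names another brain region and a younger age, and the tissue and age fields were followed here. Because no label states that each library came from its own animal, p-values measure the spread between these samples. Cell type is not separated in this tissue, and some of the 35 genes are also expressed by other cells. The number of oligodendrocytes, the RNA per oligodendrocyte and RNA of other cells cannot be told apart in any result below.

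Oligodendrocytes wrap the axons of the central nervous system in myelin, a stack of membrane rich in lipid and in a small number of abundant proteins that hold its layers together. The transcription factors Sox10, Olig1, Olig2 and Nkx6-2 set the lineage, and Myrf switches on the myelin genes in cells that have left the precursor stage. Most myelin of the cortex lies in its deep layers next to the white matter.

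Library totals ran from 37.7 M to 68.3 M counts, with a median of 48.6 M, and the sex genes matched the labelled sex in 48 of 48 libraries. Gene counts of Msh3 did not fall in the mutants: they ranged from 20.5 to 23.5 CPM (median 22.7) in wild type, from 55.3 to 64.7 CPM (median 60.6) in libraries labelled Msh3+/- and from 84.2 to 108 CPM (median 98.3) in libraries labelled Msh3-/-, where CPM is the read count scaled to the TMM-adjusted library size. Which part of the gene is deleted is not stated, so this count separates the labelled genotypes without overlap but does not show the loss. The 35 genes summed to between 2026 and 3119 CPM in any library. Markers of striatal neurons (Drd1, Adora2a and Ppp1r1b) summed to between 83.3 and 123.7 CPM. The male libraries Msh3+/- male 1, Msh3+/- male 2 and wild-type male 2 stood apart by choroid plexus or pituitary transcripts (up to 612.6 and 45.15 CPM in sum, against medians of 7.13 to 8.04 and 0.685 to 0.797 CPM by sex), and calls that change without them are given both ways below.

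Promoter sequences are shown for 5 of the 35 genes because 4 of them (Mag, Mobp, Hapln2 and Josd2) were among the clearest differences between the sexes and 1 (Tspan2) was the clearest difference with Q140. They come from RefSeq on GRCm38.p6, in which 24 of the 35 genes had an entry, with 34 windows in all. Each runs 5′ to 3′ on the gene's strand, from 250 bases before the start site to 50 after it: Mag, chr7:30914814-30915113 (minus strand), Mobp, chr9:120149492-120149791 (plus strand), Hapln2, chr3:88027462-88027761 (minus strand), Josd2, chr7:44467730-44468029 (plus strand) and Tspan2, chr3:102734520-102734819 (plus strand). Capitals mark matches on either strand to any of 3 motifs. The SOX core was searched as ACAAAG and as ACAATG. The E-box was searched as CAGCTG and as CATATG. The MYRF motif was searched as CTGGCAC and as CTGGTAC. A match on the other strand shows as the reverse complement.
Mag: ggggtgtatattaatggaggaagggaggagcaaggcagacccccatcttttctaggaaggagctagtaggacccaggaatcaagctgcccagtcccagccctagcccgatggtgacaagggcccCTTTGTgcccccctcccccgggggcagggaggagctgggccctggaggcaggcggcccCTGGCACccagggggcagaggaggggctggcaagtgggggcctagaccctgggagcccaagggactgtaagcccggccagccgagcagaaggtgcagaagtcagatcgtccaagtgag
Mobp: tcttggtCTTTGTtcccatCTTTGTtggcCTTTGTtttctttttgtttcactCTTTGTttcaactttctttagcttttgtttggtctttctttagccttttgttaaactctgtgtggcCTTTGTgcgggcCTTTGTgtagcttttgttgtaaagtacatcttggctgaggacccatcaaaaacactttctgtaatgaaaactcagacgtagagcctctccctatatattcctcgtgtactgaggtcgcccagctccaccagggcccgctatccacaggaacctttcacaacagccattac
Hapln2: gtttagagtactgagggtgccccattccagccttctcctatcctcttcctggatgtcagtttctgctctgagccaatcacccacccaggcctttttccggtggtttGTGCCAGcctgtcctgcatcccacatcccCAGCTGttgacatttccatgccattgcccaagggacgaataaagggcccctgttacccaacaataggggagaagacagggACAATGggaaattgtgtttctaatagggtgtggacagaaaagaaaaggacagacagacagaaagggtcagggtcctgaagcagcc
Josd2: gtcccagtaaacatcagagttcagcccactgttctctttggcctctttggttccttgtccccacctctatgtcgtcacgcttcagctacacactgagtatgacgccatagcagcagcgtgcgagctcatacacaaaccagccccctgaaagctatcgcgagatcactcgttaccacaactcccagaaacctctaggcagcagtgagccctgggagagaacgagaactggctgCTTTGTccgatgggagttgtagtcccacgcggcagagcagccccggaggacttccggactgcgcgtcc
Tspan2: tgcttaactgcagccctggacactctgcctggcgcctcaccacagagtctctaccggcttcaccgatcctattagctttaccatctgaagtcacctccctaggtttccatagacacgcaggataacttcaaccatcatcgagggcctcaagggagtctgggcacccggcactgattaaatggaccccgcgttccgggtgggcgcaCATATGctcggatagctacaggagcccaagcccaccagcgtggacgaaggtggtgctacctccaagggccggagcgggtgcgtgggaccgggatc
The SOX core was found in 15 of the 34 windows and in 28.6% of 32851 mouse promoters of the same length. The E-box was found in 9 of the 34 and in 19.8% of all, and the MYRF letters in 8 of the 34 and in 7.1% of all. Some genes have several windows, and overlapping windows of Mag share their matches, so the 34 are not independent. By gene, in the same order, 12, 7 and 7 of 24 held a match. Mobp, with 6 SOX cores, had the highest number among the 34, and Mag, Hapln2, Cnp and Opalin each held both a SOX core and MYRF letters in the same window. Josd2 held 1 SOX core, and the Tspan2 window shown held only an E-box, while a second Tspan2 window, chr3:102734965-102735264, held a SOX core and an E-box. A match is a description of the letters and shows neither binding nor regulation.

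Levels between genes were compared per length, as the deposited FPKM (fragments scaled by gene length and library depth) in the 8 wild-type libraries. Mbp, which encodes the basic protein that seals the inner faces of the myelin membrane, was the highest at 115 ± 15 FPKM (SD, n = 8). Mobp, another basic protein of compact myelin, followed at 50.9 ± 7.75 FPKM. Carbonic anhydrase Car2, the pteridine reductase Qdpr and the small heat shock protein Cryab lay close together at 44.5 ± 3.94, 42.1 ± 5.83 and 41.1 ± 2.79 FPKM, and these neighbours did not differ beyond their SD. Apod (a lipid carrier), Cnp (a phosphodiesterase of uncompacted myelin) and Mal (a raft proteolipid) came next, at 35.8 ± 5.26, 31.2 ± 3.67 and 27 ± 2.89 FPKM. Other components of the sheath were lower per length, with Mag at 17.1 ± 3.04 and Mog at 10.4 ± 1.68 FPKM. Among transcription factors Olig1 had 21.9 ± 2.03, Sox10 8.38 ± 1.04, Olig2 6.22 ± 0.449, Myrf 4.53 ± 0.39 and Nkx6-2 1.97 ± 0.415 FPKM. Aspa, the aspartoacylase that releases acetate for myelin lipid, was the lowest of the 35 at 1.42 ± 0.255 FPKM. Over all 48 libraries, the highest FPKM exceeded the lowest by between 1.23 times, for Pex5l, and 2.74 times, for Mobp.

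Overlap with other genes limits some counts. In GENCODE M21, exons of Cnp (Dnajc7), Tspan2 (Tspan2os), Ermn (Galnt5), Cryab (Hspb2), S1pr5 (Gm48303), Olig1 (Gm15966), Nkx6-2 (Inpp5a), Adamts4, Pllp, Qdpr, Ndrg1 and Pex5l overlap a gene on the opposite strand, and those of Mobp (Gm38642) and Trf (Gm20425) one on the same strand. The library kit keeps the strand, but the strand setting of the counting is not stated. Reads where a pair overlaps may therefore be counted for either gene or for neither. For the same-strand pairs this holds under any strand setting.

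The clearest pattern among the 35 genes was between the sexes: 13 were called higher in females than in males and none was called lower, by edgeR's quasi-likelihood test over 19547 genes at a Benjamini-Hochberg adjusted p under 0.05. In the same comparison 4.28% of all genes were called, 2.65% higher and 1.63% lower in females. The fold change was above 0 for 32 of the 35, with a median of 0.14 on the log2 scale, against a median of -0.0003 and 49.8% above 0 over all genes. Most of the 35 varied together between libraries, so their directions are not independent of one another. An unadjusted p under 0.05 was reached by 23 of the 35 and by 17.4% of all genes. Summed over the 35, the level ranged from 2281 to 3119 CPM (median 2654) in females and from 2026 to 2776 CPM (median 2432) in males, so the ranges overlapped widely.

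**Figure D1:**
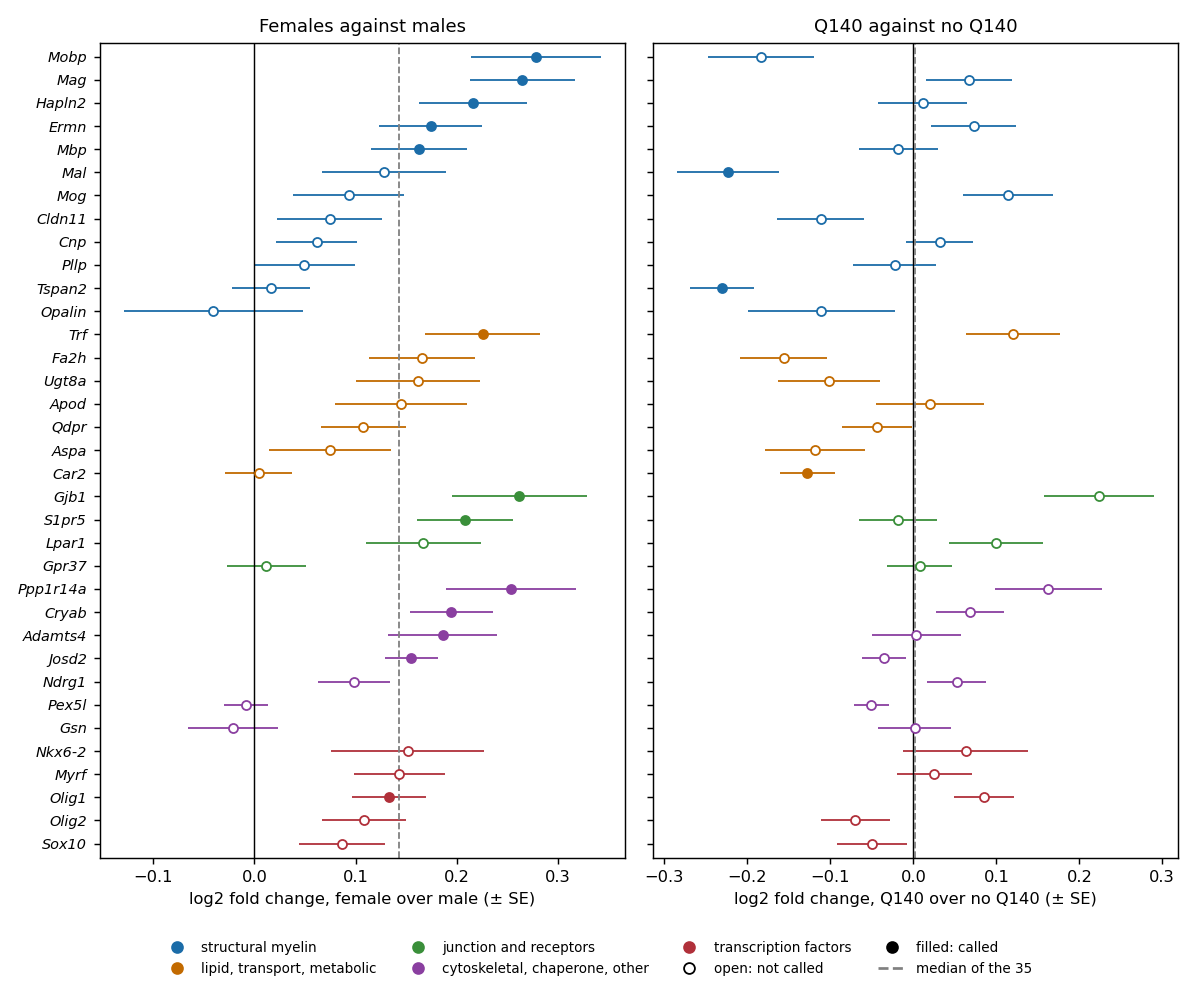
Log2 fold changes of the 35 genes (points, with bars of 1 standard error) for females over males (left) and for Q140 over no Q140 averaged over Msh3 genotypes (right), coloured by role. Filled points are called at an adjusted p under 0.05 and the dashed line is the median of the 35: it lies at 0.14 on the left, where 13 points are filled and all 13 are above 0, and near 0 on the right, where 3 are filled and all 3 are below 0.

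Of the 12 structural myelin genes, 5 rose in females and 11 lay above 0. Mag ranged from 63.6 to 105 CPM (median 76.8) in the 24 female libraries and from 49.9 to 76.3 CPM (median 66.1) in the 24 male libraries. Mag encodes an adhesion protein on the face of myelin that touches the axon (chromosome 7, 30899176 to 30914873, GRCm38), and 20 of the 24 female libraries were above the male median. Its log2 fold change was 0.26 ± 0.052 (SE, n = 24 against 24, edgeR adjusted p = 0.00125). Mobp ranged from 254 to 535 CPM (median 307) in the 24 female libraries and from 193 to 329.6 CPM (median 266) in the 24 male libraries. The highest of these, 535 CPM in Msh3+/- female 4, stood alone, and apart from it the groups overlapped in their middle range. The Mobp log2 fold change was 0.28 ± 0.064 (edgeR adjusted p = 0.0069). Hapln2 ranged from 9.15 to 15.6 CPM (median 12.3) in the 24 female libraries and from 8.51 to 13.8 CPM (median 10.4) in the 24 male libraries. Hapln2 encodes a link protein of the matrix at nodes of Ranvier, and its log2 fold change was 0.22 ± 0.054 (edgeR adjusted p = 0.0111).

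Ermn and Mbp were called with less margin. Ermn ranged from 20.6 to 32.4 CPM (median 26.3) in the 24 female libraries and from 17.2 to 28 CPM (median 22.8) in the 24 male libraries. Ermn encodes ermin, a cytoskeletal protein of the outer myelin loops, with a log2 difference of 0.17 ± 0.051 (edgeR adjusted p = 0.039). Mbp ranged from 793 to 1168 CPM (median 979) in the 24 female libraries and from 691 to 1084 CPM (median 869) in the 24 male libraries. Although 20 of 24 female libraries exceeded the male median of Mbp, the extremes overlapped, and the log2 fold change was 0.16 ± 0.048 (edgeR adjusted p = 0.0392). The structural genes that were not called had smaller fold changes. Mal was at 0.13 ± 0.061, Mog (an adhesion protein of the outermost layer) at 0.093 ± 0.054, Cldn11 (the tight junction protein of myelin) at 0.074 ± 0.052 and Cnp at 0.061 ± 0.04. Tspan2, a tetraspanin, was at 0.016 ± 0.038 with a 95% interval from -0.059 to 0.092, and Opalin, a membrane sialoprotein, at -0.041 ± 0.089 with an interval from -0.21 to 0.13.

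Of the 4 gap junction and receptor genes 2 rose in females, and all 4 lay above 0. Gjb1 ranged from 3.77 to 7.22 CPM (median 5.56) in the 24 female libraries and from 3.13 to 6.83 CPM (median 4.97) in the 24 male libraries. Gjb1, on the X chromosome (chromosome X, 101376378 to 101385629), encodes connexin 32, which links the layers of the sheath, and its log2 fold change was 0.26 ± 0.066 (edgeR adjusted p = 0.0131). S1pr5 ranged from 6.85 to 11 CPM (median 8.67) in the 24 female libraries and from 6.14 to 9.36 CPM (median 7.6) in the 24 male libraries. S1pr5 encodes the sphingosine 1-phosphate receptor of mature oligodendrocytes and had a log2 difference of 0.21 ± 0.047 (edgeR adjusted p = 0.00481). The lysophosphatidic acid receptor gene Lpar1 was at 0.17 ± 0.057 (edgeR adjusted p = 0.087) and the orphan receptor gene Gpr37 at 0.012 ± 0.039, and neither was called.

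Among the 7 cytoskeletal, chaperone, protease and other genes, 4 rose. Josd2 ranged from 30.4 to 39.5 CPM (median 34.8) in the 24 female libraries and from 27.6 to 36.8 CPM (median 30.8) in the 24 male libraries. Josd2 encodes a deubiquitinase of the Josephin family (chromosome 7, 44467980 to 44471662), and 23 of 24 female libraries lay above the male median, the highest such count of the 35. Its log2 fold change was smaller than that of Mag, 0.16 ± 0.026, but it had the lowest adjusted p of the 35 (edgeR, 0.000107). Cryab ranged from 44.9 to 61.7 CPM (median 52.4) in the 24 female libraries and from 35.5 to 55.6 CPM (median 45.2) in the 24 male libraries. Cryab, a small heat shock protein abundant in oligodendrocytes, had a log2 difference of 0.19 ± 0.041 (edgeR adjusted p = 0.00277), with 22 of 24 female libraries above the male median. Ppp1r14a ranged from 2.8 to 5.71 CPM (median 4.44) in the 24 female libraries and from 2.4 to 4.91 CPM (median 3.8) in the 24 male libraries. Ppp1r14a encodes an inhibitor of myosin phosphatase (log2 fold change 0.25 ± 0.064, edgeR adjusted p = 0.0128). Adamts4 ranged from 9.94 to 17.5 CPM (median 13.1) in the 24 female libraries and from 8.52 to 13.8 CPM (median 11.6) in the 24 male libraries. Adamts4 encodes a secreted protease made by oligodendrocytes in the brain (log2 fold change 0.19 ± 0.054, edgeR adjusted p = 0.0335). The other 3 of this role were not called: Ndrg1 was at 0.098 ± 0.035, gelsolin (Gsn) at -0.022 ± 0.044 and Pex5l, an auxiliary subunit of HCN channels that neurons also make, at -0.0084 ± 0.021.

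Of the 7 lipid, transport and metabolic genes only Trf was called, and all 7 lay above 0. Trf ranged from 13.9 to 23.2 CPM (median 17.5) in the 24 female libraries and from 11.3 to 18.8 CPM (median 15.8) in the 24 male libraries. Trf encodes the iron carrier transferrin, which oligodendrocytes make in the brain, and its log2 fold change was 0.23 ± 0.057 (edgeR adjusted p = 0.0134). The genes for the lipid enzymes Fa2h (fatty acid 2-hydroxylase) and Ugt8a (galactosylceramide synthase) were at 0.17 ± 0.052 (edgeR adjusted p = 0.0574) and 0.16 ± 0.061 (0.13). Car2 was at 0.0043 ± 0.033, with a 95% interval from -0.06 to 0.069. Of the 5 transcription factors Olig1 was called. Olig1 ranged from 43.8 to 63.1 CPM (median 51.6) in the 24 female libraries and from 40.9 to 57.7 CPM (median 46.3) in the 24 male libraries. The Olig1 log2 fold change was 0.13 ± 0.036 (edgeR adjusted p = 0.0235), and those of Myrf (0.14 ± 0.045), Nkx6-2 (0.15 ± 0.076), Olig2 (0.11 ± 0.042) and Sox10 (0.087 ± 0.043) were also above 0 without a call. Myrf ranged from 32.3 to 46.8 CPM (median 38.7) in the 24 female libraries and from 25.8 to 43.9 CPM (median 36.2) in the 24 male libraries.

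**Figure D2:**
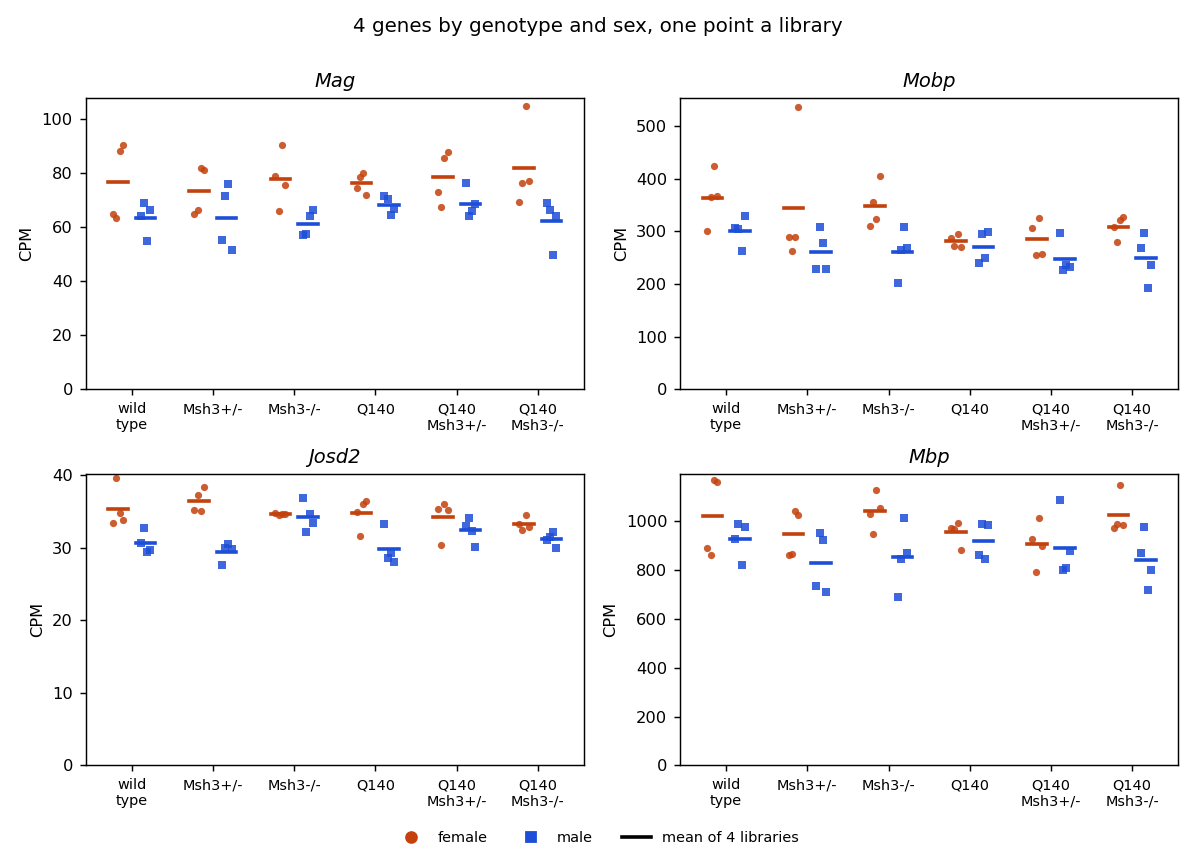
CPM of Mag, Mobp, Josd2 and Mbp in each of the 48 libraries (vertical axis, from 0), by genotype, with females as circles, males as squares and the mean of each 4 libraries as a line. The female mean was above the male mean in 6 of 6 genotypes for each of the 4 genes, and the libraries of the sexes overlapped in 6 genotypes for Mbp, 5 for Mobp, 4 for Mag and 3 for Josd2. The Josd2 means nearly met in Msh3-/-.

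Within the genotypes, each with 4 libraries a sex, the median log2 fold change of the 35 genes without Q140 was 0.14 for wild type (32 of 35 above 0), 0.10 for Msh3+/- (27) and 0.24 for Msh3-/- (33). With Q140 it was 0.042 for Msh3+/+ (21), 0.091 for Msh3+/- (25) and 0.19 for Msh3-/- (34). For Mag the fold changes were 0.28 (wild type), 0.21 (Msh3+/-) and 0.34 (Msh3-/-) without Q140, and 0.16, 0.19 and 0.40 with it, in the same Msh3 order. For Josd2 they were 0.21 (wild type), 0.31 (Msh3+/-) and 0.016 (Msh3-/-) without Q140, and 0.22, 0.081 and 0.096 with it, in the same Msh3 order. For Cryab they were 0.11 (wild type), 0.19 (Msh3+/-) and 0.31 (Msh3-/-) without Q140, and 0.13, 0.099 and 0.32 with it, in the same Msh3 order. Whether they differ between single genotypes was not tested. In wild type, females 3 and 4 carry name prefixes of forms seen in no other library. Their Mbp was 1170 and 1160 CPM, against 890 and 862 in females 1 and 2 and a male mean of 928. Their Mag was 88.3 and 90.6 CPM, against 64.9 and 63.6 and a male mean of 63.6. Josd2 did not divide so (34.8 and 33.8 against 33.3 and 39.5, male mean 30.6). The part of these 2 libraries in the wild-type values was not tested. The difference of the sex effect between carriers and non-carriers of Q140 was tested: 0% of all genes and 0 of the 35 were called. An unadjusted p under 0.05 in edgeR was reached by 2 of the 35 and by 2.61% of all genes. With only the 24 Q140 libraries 1 of the 35 was called between the sexes (Olig2, 0.213, edgeR adjusted p = 0.0374), where 0.611% of all genes were. With only the 24 others 2 were (Josd2, 0.177, edgeR adjusted p = 0.0336, and Cryab, 0.206, 0.0454), where 0.347% of all genes were. In the test of the difference the 2 genes were Olig2 (log2 0.21 ± 0.077) and Cldn11 (-0.24 ± 0.097), where a value above 0 is a larger female excess with Q140. Of the 35, 26 lay below 0 (median -0.047), among them all 12 structural genes (median -0.093). Over all genes 50% lay above 0, with a median of -1.3e-05. Since most of the 35 varied together between libraries, these counts are not of independent genes.

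Genes outside the 35 were read in the same fit. Of 36 other oligodendrocyte and myelin genes 9 were called higher in females and 0 lower, and 33 lay above 0 (median log2 fold change 0.089). Those called included Cntn2 (0.13), Dusp15 (0.19), Plxnb3 (0.21), Bcas1 (0.30), the connexin gene Gjc3 (0.15), Tmem88b (0.23), Cdc42ep1 (0.19) and Plekhb1 (0.12). None of 15 genes of oligodendrocyte precursors was called in this edgeR fit, with a median of 0.01. Microglial (6) and endothelial (5) genes had 0 calls and medians of 0.014 and 0.032. Of 7 astrocyte genes Gja1 was lower in females (-0.11), and of 4 neuronal genes Slc17a7 was lower (-0.065). Genes of layer 6 and 6b neurons, which lie beside the white matter, had 0 of 6 called and a median of 0.12, with 5 of 6 above 0: their sum ranged from 74.5 to 94.6 CPM (median 82.8) in females and from 65.2 to 99.3 CPM (median 80.1) in males. Their part in the result was not tested. All 5 choroid plexus genes tested lay below 0 (median -0.68), and 2 of 3 pituitary genes were called lower in females. Without the 3 libraries rich in those transcripts, 14 of the 35 and 3.52% of all genes were called between the sexes, the 14 all higher in females. Ermn lost its call (edgeR adjusted p = 0.0564), and Ndrg1 (log2 0.12, adjusted p = 0.0448) and Olig2 (0.136, 0.0406) gained one.

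Well position was not balanced for sex: plate column 1 held 6 females and 2 males, and column 6 held 2 and 6. Within each of the 6 plate columns the female mean was above the male mean for Josd2 (log2 differences from 0.0427 to 0.212), Mag (from 0.0857 to 0.407), Cryab (from 0.0619 to 0.357), S1pr5, Mobp, Hapln2, Trf, Adamts4 and Mbp, while Gjb1 was above it in 4 of 6 and Ppp1r14a, Olig1 and Ermn in 5 of 6. With plate column as a term Adamts4, Ermn and Mbp lost their calls (edgeR adjusted p = 0.0895, 0.085 and 0.0538). Leaving out 1 library at a time kept the calls of Josd2, Mag, Cryab, S1pr5, Mobp, Hapln2, Ppp1r14a, Gjb1, Trf and Olig1 in 48 of 48 fits, of Adamts4 in 40, and of Ermn and Mbp in 26 each.

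With Q140, averaged over the 3 Msh3 genotypes, the 35 genes divided. In this comparison 3 were called lower and 0 higher, where 1.47% of all genes were called, 0.711% higher and 0.762% lower. The fold change was above 0 for 18 and below 0 for 17, with a median of 0.0014 (-0.00084 over all genes), and 12 of 35 against 15.1% of all genes had an unadjusted p under 0.05. Tspan2 ranged from 33.9 to 46 CPM (median 39.9) in the 24 libraries with Q140 and from 36.8 to 56.5 CPM (median 45.8) in the 24 without it. Of the libraries with Q140, 23 of 24 were below the median of those without it. Tspan2 (chromosome 3, 102734529 to 102801513) encodes a tetraspanin of the myelin membrane, and its log2 fold change was -0.23 ± 0.038 (SE, n = 24 against 24, edgeR adjusted p = 0.000268). Car2 ranged from 87.8 to 115 CPM (median 97.8) in the 24 libraries with Q140 and from 87.3 to 121 CPM (median 109.7) in the 24 without it. Its fold change was -0.13 ± 0.033 on the log2 scale (edgeR adjusted p = 0.0317), with 22 of 24 Q140 libraries below the other median. Mal ranged from 49.2 to 73.4 CPM (median 62.1) in the 24 libraries with Q140 and from 44.5 to 112 CPM (median 69.1) in the 24 without it. For Mal, whose product sorts proteins into myelin rafts, it was -0.22 ± 0.061 (edgeR adjusted p = 0.0488), again with 22 of 24 libraries below.

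Tspan2 was the steadiest of the 3. Its median CPM was 47.5 (wild type), 45.3 (Msh3+/-) and 45.6 (Msh3-/-) without Q140, and 39.9, 39.2 and 40.8 with it, in the same Msh3 order. Within plate columns its difference lay between -0.351 and -0.166 in all 6, and it was called in 48 of 48 fits that left out 1 library. Car2 was below 0 in all 6 columns (from -0.259 to -0.0834) and was called in 44 of 48 fits. Its call ended without Msh3+/- male 2 (edgeR adjusted p = 0.0566), Q140 with Msh3-/- male 1 (0.0517), wild-type female 3 (0.0534) or wild-type female 4 (0.0512). Mal was below 0 in all 6 columns (from -0.476 to -0.0715) but was called in 14 of 48 fits, with adjusted p between 0.0191 and 0.0791. Q140 was not balanced over plate columns, since column 1 held 7 libraries with it and 1 without. Mal lost its call with plate column as a term (edgeR adjusted p = 0.16) and with the name prefix as a random block (limma adjusted p = 0.0544). Without the 3 libraries rich in transcripts of choroid plexus or pituitary, Car2 and Mal were not called (edgeR adjusted p = 0.0763 and 0.073). With only the 24 females 1 of the 35 was called, Tspan2 (log2 -0.272, edgeR adjusted p = 0.0058), where 0.0875% of all genes were. With only the 24 males 1 of the 35 was called, Car2 (-0.155, edgeR adjusted p = 0.0326), where 0.137% of all genes were, and Tspan2 was at -0.196 (adjusted p = 0.205).

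**Figure D3:**
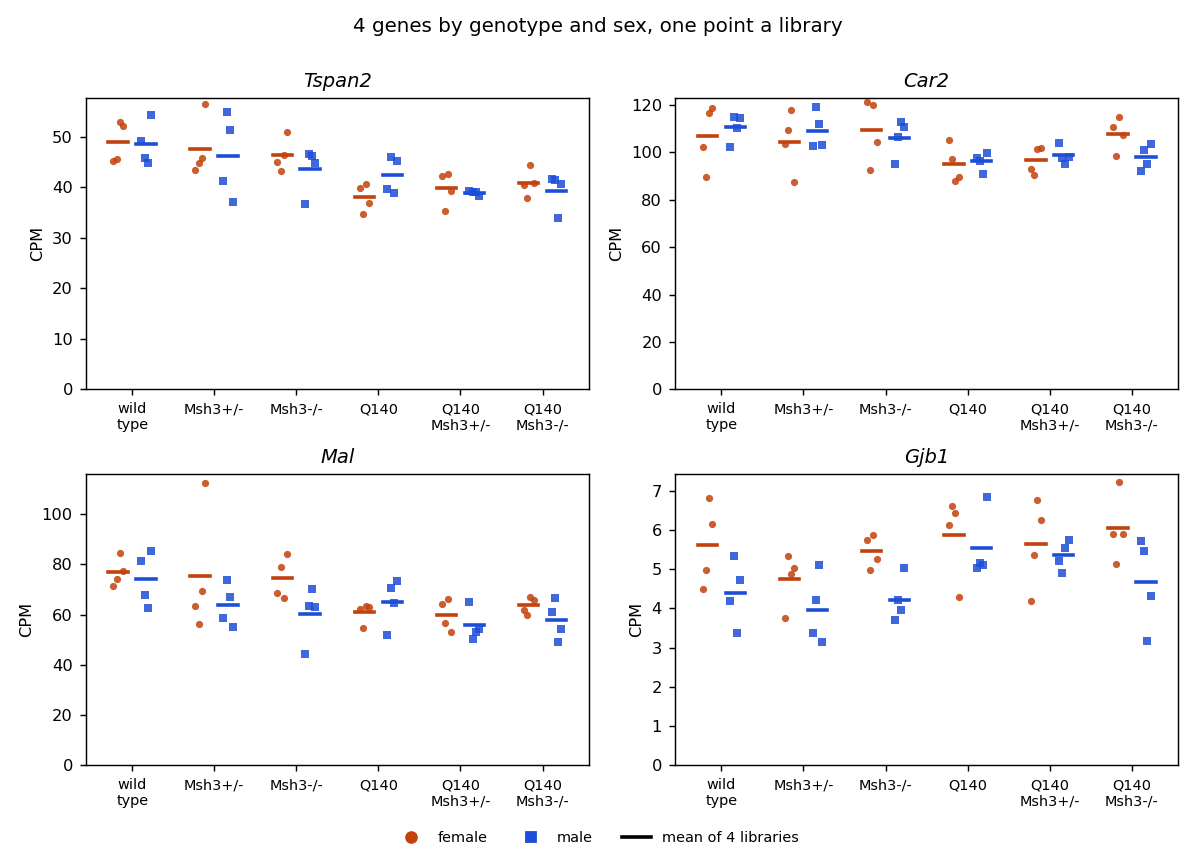
CPM of Tspan2, Car2, Mal and Gjb1 in each of the 48 libraries (vertical axis, from 0), by genotype, with females as circles, males as squares and the mean of each 4 libraries as a line. The 3 Q140 genotypes on the right sit lower than the 3 on the left for Tspan2, with medians of 39.2 to 40.8 against 45.3 to 47.5 CPM, whereas Gjb1 lies higher on the right.

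Other genes leaned in either direction without a call. Gjb1 ranged from 3.16 to 7.22 CPM (median 5.5) in the 24 libraries with Q140 and from 3.13 to 6.82 CPM (median 4.93) in the 24 without it. The log2 fold change of Gjb1 was 0.22 ± 0.067 (edgeR adjusted p = 0.0723), opposite in sign to that of Tspan2, and it was called by DESeq2 (adjusted p = 0.0343). Fa2h ranged from 9.58 to 16.4 CPM (median 12.9) in the 24 libraries with Q140 and from 10.9 to 19.1 CPM (median 14.6) in the 24 without it. Fa2h was at -0.16 ± 0.052 (edgeR adjusted p = 0.117). Mobp was at -0.18 ± 0.064 (edgeR adjusted p = 0.137) and Ppp1r14a at 0.16 ± 0.064 (0.196). The major components Mbp, Cnp and Mag lay near 0: Mbp at -0.018 ± 0.048 with a 95% interval from -0.11 to 0.075, Cnp at 0.032 ± 0.04 with an interval from -0.048 to 0.11, and Mag at 0.067 ± 0.052 with an interval from -0.034 to 0.17. Mog was at 0.11 ± 0.054 (edgeR adjusted p = 0.307). Of the transcription factors Olig1 was at 0.086 ± 0.036, Myrf at 0.025 ± 0.045, Nkx6-2 at 0.063 ± 0.076, Sox10 at -0.05 ± 0.043 and Olig2 at -0.07 ± 0.042, and none was called. Qdpr lies on chromosome 5 at 10.6 Mb from Htt, the locus of the knock-in, and its fold change was -0.044 ± 0.042.

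Beside the 35, 36 other oligodendrocyte and myelin genes had 3 called higher with Q140 and 1 lower, with 26 above 0 and a median of 0.031. Anln (0.35 ± 0.056), which encodes the septin scaffold anillin, Plxnb3 (0.19 ± 0.04) and Sema4d (0.074 ± 0.02), a semaphorin receptor and a semaphorin, rose, and Il33 (-0.24 ± 0.045), a cytokine kept in glial nuclei, fell. Of 15 precursor genes Enpp6 (0.64 ± 0.072) and Zfp488 (0.27 ± 0.054), genes of newly forming oligodendrocytes, rose. Astrocyte genes moved as well: 4 of 7 were called lower and 0 of 7 lay above 0, and their sum ranged from 5035 to 5901 CPM with Q140 and from 5362 to 6692 CPM without it. A neuronal gene, Rbfox3, of 4 and a pituitary gene, Gh, of 3 were called lower too. None of 5 endothelial (median -0.079) and 4 meningeal genes (median -0.21) was called, and all lay below 0. The part of these differences in the results of the 35 was not tested.

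In the 3 single comparisons that make up this average none of the 35 was called by edgeR. Against wild type, Q140 called 0.102% of all genes and 0 of the 35, with a median of -0.03 for the 35. An unadjusted p under 0.05 was reached by 6 of 35 and by 8.8% of all genes. Tspan2 ranged from 34.7 to 46 CPM (median 39.9) in Q140 and from 44.9 to 54.3 CPM (median 47.5) in wild type, so the groups overlapped at their edges, with a log2 difference of -0.28 ± 0.066 (n = 8 against 8, edgeR adjusted p = 0.082). It was called by DESeq2 (adjusted p = 0.0184) and by edgeR on the libraries of these groups alone (0.0342). Car2 was at -0.19 ± 0.057, Fa2h at -0.28 ± 0.09 and Mal at -0.26 ± 0.11. Car2 ranged from 87.8 to 105 CPM (median 96.9) in Q140 and from 89.4 to 119 CPM (median 112) in wild type. Fa2h ranged from 11 to 15.4 CPM (median 12.9) and from 12.4 to 19.1 CPM (median 15) in the same order, so that the groups overlapped for both.

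With Msh3+/- in both groups, Q140 called 0.0512% of all genes and 0 of the 35, and DESeq2 also called 0 of the 35. At an unadjusted p under 0.05 in edgeR were 7 of the 35 and 7.77% of all genes. Ppp1r14a ranged from 3.49 to 5.71 CPM (median 4.17) with Q140 and from 2.4 to 4.2 CPM (median 3.23) without it, a log2 difference of 0.44 ± 0.12 (edgeR adjusted p = 0.255), Tspan2 was at -0.25 ± 0.067 and Gjb1 at 0.35 ± 0.12. With Msh3-/- in both groups 0.0205% of all genes and 0 of the 35 were called, and DESeq2 also called 0 of the 35. At an unadjusted p under 0.05 in edgeR were 2 of the 35 and 6.77% of all genes. Tspan2 was at -0.16 ± 0.067, Josd2 at -0.098 ± 0.046, Fa2h at -0.15 ± 0.09 and Mal at -0.14 ± 0.11. The interactions of Q140 with Msh3+/- and with Msh3-/- called 0% of all genes and 0 of the 35 by edgeR and by DESeq2. At an unadjusted p under 0.05 in edgeR were 1 and 0 of the 35, against 3.3% and 3.2% of all genes. The 1 was Ppp1r14a (0.41 ± 0.16), which had its lowest genotype median in Msh3+/- (3.23 CPM, against 4.28 in wild type and 4.17 in Q140 with Msh3+/-). For Tspan2 the interaction with Msh3-/- was 0.11 ± 0.094, with a 95% interval from -0.071 to 0.30.

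Mutation of Msh3 changed none of the 35 past the threshold in edgeR. Msh3+/- against wild type called 0.0307% of all genes and 0 of the 35. An unadjusted p under 0.05 was reached by 7 of the 35 and by 4.96% of all genes. For the 35 that number was 3 without the 3 libraries rich in choroid plexus or pituitary transcripts, of which 2 are Msh3+/-, and 4 with no sex term. Msh3-/- against wild type called 0.113% and 0, with 0 of the 35 and 10.8% of all genes at that level. DESeq2 called 0 of the 35 in both comparisons. The fold change was below 0 for 30 of 35 in Msh3+/- (median -0.067) and for 28 of 35 in Msh3-/- (median -0.06), against medians of 0.0014 and 0.0054 over all genes. Most of the 35 varied together between libraries, so these counts are not of independent genes. The mean log2 CPM of the 35 had an SD of 0.108 between libraries of the same genotype and sex. The comparisons of Msh3+/-, of Msh3-/- and of Q140 with wild type share the 8 wild-type libraries. Among those, females 3 and 4 carry name prefixes of forms seen in no other library and were high for several genes. Their Mbp was 1170 and 1160 CPM, against 890 and 862 in females 1 and 2, and their Cnp 130 and 134, against 103 and 99.8. Gsn did not divide so (25.6 and 29.6 against 24.9 and 27.8). The part of these 2 libraries in the shift was not tested. Genes of layer 6 and 6b neurons lay above 0 for 0 of 6 in Msh3+/- (median -0.14) and for 1 of 6 in Msh3-/- (median -0.082), with 0 called in either, and their part in the shift was not tested. Ppp1r14a was at -0.39 ± 0.12, Fa2h at -0.22 ± 0.09, Ndrg1 at -0.14 ± 0.061 and Mog at -0.21 ± 0.095 in Msh3+/-, with edgeR adjusted p between 0.687 and 0.963. In Msh3-/-, S1pr5 was at -0.16 ± 0.081, Mog at -0.18 ± 0.094 and Tspan2 at -0.12 ± 0.066. Mog ranged from 15.3 to 23 CPM (median 16.6) in wild type, from 10.7 to 18.6 CPM (median 16.1) in Msh3+/- and from 13.1 to 17.4 CPM (median 16.6) in Msh3-/-, and the 3 groups overlapped.

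On the Q140 background, Msh3+/- called 0.0307% of all genes and Msh3-/- 0.102% by edgeR, and 0 of the 35 in each by edgeR and by DESeq2. In each, 1 of 35 was at an unadjusted p under 0.05 in edgeR, against 6.22% and 6.86% of all genes. That 1 was Apod in both, and both comparisons use the same 8 Q140 libraries. Apod, a lipocalin that binds lipids, ranged from 83.3 to 118 CPM (median 103) in Q140, from 58.6 to 100.1 CPM (median 90.9) in Q140 with Msh3+/- and from 52.5 to 94 CPM (median 81.2) in Q140 with Msh3-/-. Its log2 fold changes were -0.26 ± 0.11 (edgeR adjusted p = 0.777) and -0.35 ± 0.11 (0.603). Qdpr was at 0.15 ± 0.073, Aspa at 0.20 ± 0.1 and Car2 at 0.11 ± 0.057 in Msh3-/- on this background. Averaged over Q140 status, Msh3-/- against Msh3+/+ called 0.215% of all genes and 0 of the 35 in edgeR. An unadjusted p under 0.05 was reached by 2 of the 35 and by 14.9% of all genes. The 2 were Apod at -0.26 ± 0.08 (edgeR adjusted p = 0.128) and Mog at -0.17 ± 0.066 (0.216), and 25 of 35 lay below 0. DESeq2 called 1 of the 35, Apod (adjusted p = 0.0495), where it called 0.813% of all genes. Mbp was at -0.029 ± 0.058, with a 95% interval from -0.14 to 0.085.

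Levels across the 6 genotypes are given for the genes that the comparisons turned on, as the lowest, median and highest CPM of 8 libraries each, with the 3 Q140 genotypes in the order Msh3+/+, Msh3+/- and Msh3-/-. Mbp had 822, 952 and 1168 (wild type), 709, 894 and 1042 (Msh3+/-) and 691, 979 and 1128 (Msh3-/-) without Q140, and 844, 971 and 994, then 793, 888 and 1084, then 716, 974 and 1148 with it. Cnp had 99.8, 113 and 134 (wild type), 87.3, 111 and 133 (Msh3+/-) and 98.5, 114 and 126 (Msh3-/-) without Q140, and 106, 116 and 119, then 108, 116 and 125, then 94.2, 114 and 142 with it. Every genotype overlapped every other for both of these abundant genes. Mal had 62.7, 75.9 and 85.2 (wild type), 55.2, 65.3 and 112 (Msh3+/-) and 44.5, 67.6 and 84.2 (Msh3-/-) without Q140, and 51.7, 63.2 and 73.4, then 50.4, 55.4 and 66.2, then 49.2, 61.5 and 66.9 with it. Its highest library lay in Msh3+/-. Tspan2 had 44.9, 47.5 and 54.3 (wild type), 37.1, 45.3 and 56.5 (Msh3+/-) and 36.8, 45.6 and 51 (Msh3-/-) without Q140, and 34.7, 39.9 and 46, then 35.3, 39.2 and 42.6, then 33.9, 40.8 and 44.4 with it. The 3 medians of Tspan2 without Q140 were all above the 3 with it. Ermn had 21.2, 23.8 and 32.4 (wild type), 18.9, 21.3 and 27 (Msh3+/-) and 18.4, 24.4 and 28.4 (Msh3-/-) without Q140, and 22.1, 27.3 and 29.7, then 21.7, 26.3 and 29.9, then 17.2, 23.6 and 29.3 with it. The highest median of Ermn lay in Q140.

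Of the lipid and metabolic genes, Fa2h had 12.4, 15 and 19.1 (wild type), 11.2, 13 and 15.7 (Msh3+/-) and 10.9, 15 and 17.7 (Msh3-/-) without Q140, and 11, 12.9 and 15.4, then 11.6, 12.8 and 15.7, then 9.58, 13.3 and 16.4 with it. Car2 had 89.4, 112 and 119 (wild type), 87.3, 106 and 119 (Msh3+/-) and 92.5, 108 and 121 (Msh3-/-) without Q140, and 87.8, 96.9 and 105, then 90.2, 97.8 and 104, then 92.3, 102 and 115 with it. Their highest medians lay in Msh3-/- and wild type, in that order. Qdpr had 61.4, 75 and 96 (wild type), 60, 71.1 and 88.6 (Msh3+/-) and 62.9, 76.3 and 94 (Msh3-/-) without Q140, and 65.4, 69.4 and 74.1, then 65.8, 71.3 and 78.2, then 64.4, 74.5 and 101 with it. Aspa had 6.63, 8.46 and 10.9 (wild type), 6.79, 7.61 and 11 (Msh3+/-) and 7.22, 8.16 and 9.43 (Msh3-/-) without Q140, and 6.17, 7.58 and 9.1, then 6.52, 7.05 and 7.78, then 5.65, 8.55 and 11.1 with it. Ugt8a had 18.4, 20.2 and 31.6 (wild type), 14.4, 18.8 and 26.9 (Msh3+/-) and 15.8, 21.1 and 25.2 (Msh3-/-) without Q140, and 16.2, 19.3 and 21, then 17.4, 19.4 and 23.9, then 15.1, 19.7 and 24.4 with it. The lowest median of Qdpr lay in Q140, that of Aspa in Q140 with Msh3+/- and that of Ugt8a in Msh3+/-. Apod had 73.9, 94.5 and 111 (wild type), 72.1, 86.1 and 123 (Msh3+/-) and 56.9, 80.8 and 109 (Msh3-/-) without Q140, and 83.3, 103 and 118, then 58.6, 90.9 and 100.1, then 52.5, 81.2 and 94 with it. On either background its median was lowest in Msh3-/-.

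Of the junction and receptor genes, Gjb1 had 3.38, 4.86 and 6.82 (wild type), 3.13, 4.54 and 5.33 (Msh3+/-) and 3.69, 5.01 and 5.86 (Msh3-/-) without Q140, and 4.3, 5.65 and 6.83, then 4.2, 5.45 and 6.76, then 3.16, 5.6 and 7.22 with it. All 3 medians of Gjb1 with Q140 were above the 3 without it. Lpar1 had 11.2, 13.8 and 19.2 (wild type), 10.4, 12.7 and 15.5 (Msh3+/-) and 9.56, 12.8 and 16.5 (Msh3-/-) without Q140, and 13.1, 15.1 and 17.9, then 12.4, 14.7 and 15.9, then 10.2, 14.1 and 17.5 with it. Its medians with Q140 were also all above those without it. S1pr5 had 6.7, 8.54 and 11 (wild type), 6.78, 8.32 and 10.1 (Msh3+/-) and 6.7, 7.56 and 8.88 (Msh3-/-) without Q140, and 6.46, 8.29 and 9.12, then 7.39, 7.99 and 9, then 6.14, 8.24 and 10.2 with it. The highest median of S1pr5 lay in wild type.

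Of the cytoskeletal and other genes, Josd2 had 29.5, 33 and 39.5 (wild type), 27.6, 32.8 and 38.3 (Msh3+/-) and 32.1, 34.6 and 36.8 (Msh3-/-) without Q140, and 28, 32.4 and 36.5, then 30.1, 33.5 and 36, then 29.9, 32.3 and 34.5 with it. Ndrg1, a gene induced in differentiating and stressed cells, had 55.3, 63.3 and 73.9 (wild type), 50, 55.2 and 64.5 (Msh3+/-) and 48.2, 61.1 and 67.5 (Msh3-/-) without Q140, and 54.5, 62.5 and 71.2, then 55.2, 63.2 and 67, then 51.5, 62.7 and 67 with it. The residual SDs of these 2 on the log2 scale were 0.0792 and 0.127, below the median of 0.18 of the 35. Ppp1r14a had 2.8, 4.28 and 5.39 (wild type), 2.4, 3.23 and 4.2 (Msh3+/-) and 3.53, 4.02 and 4.86 (Msh3-/-) without Q140, and 3.28, 4.45 and 5.27, then 3.49, 4.17 and 5.71, then 2.92, 3.92 and 5.58 with it. Its lowest median lay in Msh3+/-. Among transcription factors, Sox10 had 18.8, 22.9 and 27.1 (wild type), 16.6, 23.6 and 26.3 (Msh3+/-) and 20.3, 24 and 27.2 (Msh3-/-) without Q140, and 19.6, 21.5 and 25.8, then 18.9, 22.9 and 23.7, then 19.6, 23.5 and 26.6 with it. Myrf had 33.8, 39.5 and 43.4 (wild type), 30.6, 37.3 and 46.4 (Msh3+/-) and 25.8, 38.2 and 45.9 (Msh3-/-) without Q140, and 34.9, 38.4 and 43.9, then 32.4, 37.2 and 46.8, then 30.1, 37.7 and 43.3 with it. Olig2 had 12.7, 15.7 and 16.1 (wild type), 12.6, 14.2 and 18.8 (Msh3+/-) and 11.8, 14.3 and 15.5 (Msh3-/-) without Q140, and 12.2, 13.5 and 15.8, then 11.6, 14.7 and 17.2, then 11.6, 13.2 and 16.5 with it. For Sox10, Myrf and Olig2 every genotype overlapped every other. Olig1 had 40.9, 47 and 54 (wild type), 43.3, 48.7 and 58.7 (Msh3+/-) and 43.4, 49.8 and 56.8 (Msh3-/-) without Q140, and 44.7, 51 and 53.1, then 44.2, 54.8 and 60.9, then 43.3, 51 and 63.1 with it. The highest median of Olig1 lay in Q140 with Msh3+/-.

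Most of the 35 genes varied together between libraries of the same genotype and sex. After the mean of each genotype and sex was subtracted from log2 CPM, the 595 pairs of the 35 had a median Pearson's r of 0.447, from -0.223 to 0.935, with 568 above 0. The median r of the other 34 with Mbp was 0.657, against -0.0013 for all tested genes, and 26 of the 34 against 1.74% of all genes had an r over 0.5. The points share library depth and dissection, so r is a description of these 48 libraries. Of 12 relations fixed for testing, Mbp with Myrf had r = 0.838 (Spearman's rho 0.847), with Mag 0.837 (rho 0.862), with Cryab 0.826 (0.847), with Cnp 0.801 (0.842), with Mog 0.74 (0.771), with Mobp 0.717 (0.767) and with Trf 0.665 (0.693). Each of these 7 had a permutation p of 1e-05 for both measures (n = 48, 100000 resamples, two-sided), the smallest the resamples can give, and 1.71e-05 after adjustment over the 12. The permutations treated the 48 values as free, although the means of genotype and sex had been subtracted. The permutation p-values of all 12 relations can therefore be too small. Without the 2 libraries farthest from the Mbp median, Msh3-/- male 1 and Q140 with Msh3+/- male 1, r stayed between 0.677 and 0.858 for these 7.

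The other transcription factors had lower r with Mbp than Myrf, and the difference was not tested. As descriptions, Olig1 had r = 0.637 and Nkx6-2 0.382. Sox10 had r = 0.449 (rho 0.453, adjusted permutation p = 0.00187 and 0.002), and Olig2 had r = 0.283 (rho 0.194, adjusted permutation p = 0.0625 and 0.223). Pex5l had r = 0.326 (rho 0.323, adjusted permutation p = 0.0313 and 0.0332). Whether the Pex5l relation stays under 0.05 once the subtracted means are allowed for was not tested. Outside the 35, the glutamate transporter gene Slc17a7 had r = -0.0949 (rho -0.0745, adjusted permutation p = 0.566 and 0.616) and the astrocyte connexin gene Gja1 had r = 0.0295 (rho -0.0909, 0.843 and 0.589). As a description without a test, Josd2 had an r of -0.014 with Mbp and Gsn 0.185, the 2 lowest of the 34. The gene with the lowest adjusted p between the sexes was also the one whose level followed Mbp least from library to library. Its residual SD was 0.0792 on the log2 scale, against a median of 0.18 for the 35.

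**Figure D4:**
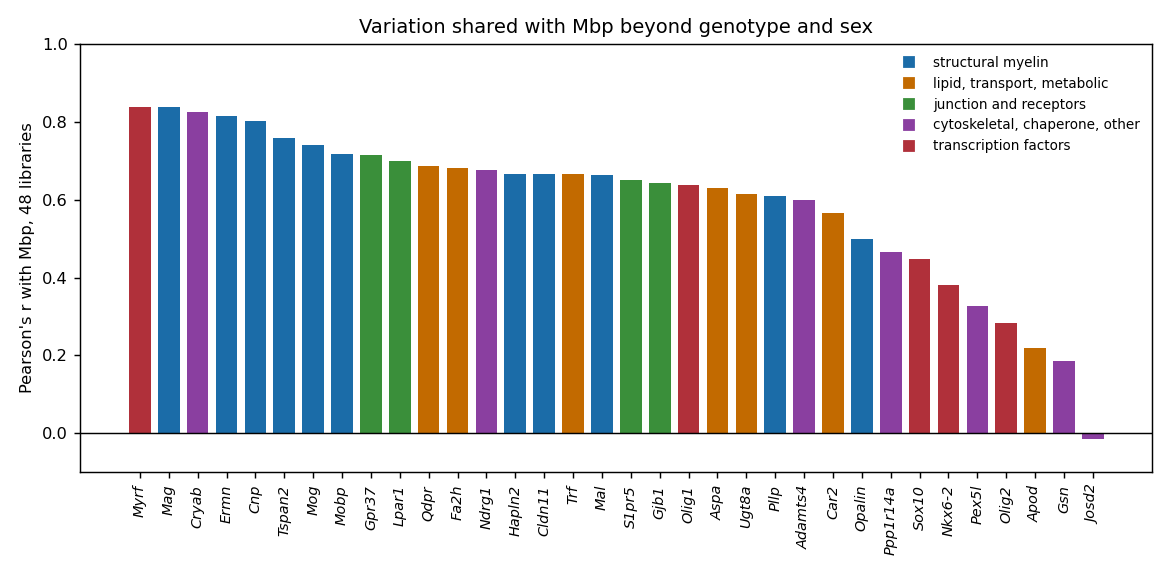
Pearson's r of each of the other 34 genes with Mbp (bars, coloured by role) over 48 libraries, after the mean of each genotype and sex was subtracted from log2 CPM. Myrf, Mag and Cryab stand highest, at 0.838, 0.837 and 0.826, and Josd2 alone lies below 0, at -0.014.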

How the data were processed

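RNA libraries of mouse cerebral cortex were prepared with a TruSeq stranded kit from RNeasy-extracted RNA, per the labels' protocols. The submitters' processing notes name STAR 2.7.5c, SAMtools 1.10, HTSeq 0.12.3 and GRCm38/mm10. The authors deposited raw read counts per gene and, separately, FPKM values per gene. The annotation, the strand setting and the gene lengths used are not given in the sources used here. Library totals ranged from 37.7 M to 68.3 M counts.

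Of 48795 genes, 14658 were at 0 in every library, and 19547 passed edgeR's expression filter (minimum count 10, minimum total 15). The counts were scaled by TMM and fitted with the quasi-likelihood test of edgeR 4.0.16 (R 4.3.3, limma 3.58.1), with 6 genotype groups and a term for sex over all 48 libraries. P-values were adjusted by Benjamini-Hochberg over all genes tested, and calls were made under 0.05. CPM values are per library after TMM, and FPKM served only to set levels of different genes side by side. Standard errors were derived from the test, as the absolute log2 fold change over the square root of its F statistic. The 95% intervals follow from them by a normal approximation. Log2 CPM for the relations between genes used a prior count of 2. Their p-values came from permutations over all 48 libraries, without allowing for the subtracted means of genotype and sex. The fitting was tested on simulated data for Q140 against wild type only. The simulated counts held no sex effect, and the sex comparison and the averaged comparisons were not tested in this way.

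The members and lists were chosen with earlier results of these data known. Every member may be named. Ranges per group are given for members called in any comparison, for the 4 of smallest p in each, and for Mbp, Mog, Cnp, Sox10, Myrf and Olig2. Of the related lists, called genes and the 4 of smallest p with Q140 could be named, and some are not reported here. Alternatives were RLE scaling, DESeq2 1.42.0, no filter on low counts, only the groups compared, no sex term, a replicate block, a random block for the name prefix, a plate column term and leaving out each library. Chosen after seeing the data were the fits without 3 libraries rich in choroid plexus or pituitary transcripts, the fits within 1 sex or 1 Q140 status, and the genotype-by-sex fit.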

Additional observations from a re-analysis of the deposited data

Results flagged for a closer look

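Of 210 groups of 8 libraries (35 genes in 6 genotypes), 9 held a library whose gap to its nearest neighbour exceeded Dixon's 95% critical value for 8 samples, as a share of the group's range, and chance gives about 1 such group in 20. Msh3+/- female 4 accounted for 4 of them. Its Mobp was 535 CPM (228 to 308 in the other 7 libraries), its Mal 112 CPM (55.2 to 73.7), its Hapln2 13.6 CPM (8.51 to 10.9) and its Apod 123 CPM (72.1 to 91.3). Apod was low in Q140 with Msh3-/- male 4, at 52.5 CPM (76.2 to 94.0 in the others). Sox10 was low in Msh3+/- male 1, at 16.6 CPM (21.9 to 26.3), and high in Q140 male 4, at 25.8 CPM (19.6 to 22.5). Olig2 was low in wild-type male 1, at 12.6 CPM (15 to 16.1), and in Msh3-/- male 1, at 11.8 CPM (13.8 to 15.5).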

How the results depend on the processing

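No result reversed. Against wild type, Q140 called 1 of the 35 genes (Tspan2) with a replicate block, with only the groups compared and by DESeq2, in place of 0. Of all genes those fits called 0.138%, 0.115% and 0.174% in that order, against 0.102%. When single libraries were left out, 0 to 1 of the 35 and 13 to 24 of all genes were called. Averaged over Msh3 genotypes, Q140 called 1 in place of 3 with no filter on low counts, without the 3 libraries rich in choroid plexus or pituitary transcripts, in only the females and in only the males. Of all genes these fits called 0.58%, 1.14%, 0.0875% and 0.137% in that order, against 1.47%. Leave-one-out fits called 1 to 4 of the 35 and 201 to 475 of all genes. The number of the 35 was 1 without Msh3+/- male 2, Q140 with Msh3-/- male 1, wild-type female 3 or wild-type female 4 (201, 216, 214 and 238 of all genes). Msh3-/- averaged over Q140 status called 1 (Apod) by DESeq2 in place of 0, where 0.813% of all genes were called in place of 0.215%. Between the sexes, 1 of the 35 was called in only the Q140 libraries and 2 in only the others, in place of 13. Each of these fits has 24 libraries in place of 48. Of all genes they called 0.611% and 0.347% in that order, in place of 4.28%. Leave-one-out fits called 10 to 15 of the 35 and 688 to 896 of all genes. The causes of these changes were not tested. Without the filter Olig1, Adamts4, Ermn and Mbp lost their sex calls (edgeR adjusted p = 0.0501, 0.0707, 0.0762 and 0.0679). Replicate numbers were shared by samples but did not pair them: of 120 same-numbered pairs of genotypes, 10 deviated together with r above 0.1 (mean r 0.00922). With the replicate block Tspan2 against wild type was at -0.2767 (edgeR adjusted p = 0.0394) and Mal lost its averaged call (0.0565).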

Other observations

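Over all tested genes, those whose level followed Mbp most closely between libraries of the same genotype and sex included several outside the set. Gatm, an enzyme of creatine synthesis, had Pearson's r = 0.851, above every one of the 34 other members. Bcas1 (0.796), Plekhb1 (0.794), Rapgef4 (0.792) and Tmem63a (0.791) followed. These are descriptions over 48 libraries and carry no test.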
